A study of Mus musculus with 16 samples.

Results

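The pro-death branch of the Bcl2 family is followed here in mouse embryonic stem (ES) cells exposed to doxorubicin, a DNA-damaging drug. The genes were taken from a fixed list of 10, Bbc3, Pmaip1, Bax, Bak1, Bid, Bcl2l11, Bik, Bmf, Bad and Hrk, and all 10 were found among the 22375 genes of the count tables. Each of the 10 had enough counts to be tested, as did 15758 genes in all. RNA was compared between E14TG2a cells, the wild type (WT), and Cfp1-/- cells, both labelled as strain 129/OLA. Cells of each line were left untreated or received doxorubicin for 6 hours at 1 μM, the dose in the treatment protocol (the sample labels write the same number with mM). All cells were grown on gelatin in serum with LIF. Each of the 4 groups had 2 biological replicates, sequenced in 2 technical runs that were summed into 1 library, so that n = 2 per group throughout. The sources used here do not state whether the Cfp1-/- cells are 1 clone or what separates the biological replicates, so p-values measure the spread between these libraries.

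Bcl2 family proteins decide whether mitochondria release cytochrome c and start the caspase cascade. Bax and Bak1 are the effectors that open the outer mitochondrial membrane. BH3-only proteins such as Puma (Bbc3), Noxa (Pmaip1), Bim (Bcl2l11), Bid, Bik, Bmf, Bad and Hrk set them in motion, either directly or by occupying pro-survival proteins such as Bcl2, Bcl-xL and Mcl1. In many cell types DNA damage acts on this branch through the transcription factor p53, for which Bbc3, Pmaip1 and Bax are textbook target genes. Mouse ES cells are known to be highly sensitive to DNA damage. Cfp1 is a CpG-binding protein of the Set1 histone methyltransferase complexes, and the study asked whether cells without it still raise the genes that respond to doxorubicin.

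Libraries held between 14880589 and 29422711 counts. Cxxc1, the gene of Cfp1, had 616 to 1412 counts in the WT libraries and 1 to 5 in the Cfp1-/- libraries, as the labels state. The 10 ES cell markers examined were above 3 counts, taken as the floor, in every group. Their summed level was 84881 to 112107 normalized counts in untreated and 31398 to 43702 in treated libraries. The 7 markers of fibroblast feeders summed to 245 to 257 normalized counts in untreated and 421 to 570 in treated WT cells. In Cfp1-/- cells they summed to 128 to 135 untreated and 394 to 544 treated. The 9 markers of differentiated lineages that were found summed to 971 to 1868 in untreated and 430 to 527 in treated WT cells. In Cfp1-/- cells these summed to 149 to 223 untreated and 314 to 332 treated. Lum, a feeder marker, was at or under the floor in every group. The part of these shifts in the results was not tested. In 2 libraries, the treated replicate 1 of each line, the second run differed from the first by more than sampling noise (chi-square per degree of freedom 9.61 and 42.9, against 0.998 to 1.05 in the other libraries). Among the 10 genes, deviations went both ways. Bax had 702 and 287 counts in these runs in WT cells, where the run totals predict 407 in the second. In Cfp1-/- cells it had 957 and 374, where they predict 495. Second runs of Pmaip1 exceeded the prediction, with 2509 counts against 2033 (WT) and 1161 against 849 (Cfp1-/-). Those of Bcl2l11 did too, with 717 against 597 (WT) and 604 against 466 (Cfp1-/-). Bbc3 had 215 against 201 (WT) and 254 against 206 (Cfp1-/-). First runs alone gave Pmaip1 log2 fold changes with doxorubicin of 2.80 (WT) and 3.06 (Cfp1-/-). The second run of the Cfp1-/- library also had no counts for 209 of 291 genes with at least 200 counts in the first run on chromosome 19 and for 225 of 280 on chromosome X. Of the 10 genes, Bad lies in the stretch without counts.

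The sequences upstream of Bbc3, Bax and Hrk are shown because Bbc3 rose with doxorubicin, Bax, also a textbook p53 target, did not pass the test and Hrk fell. RefSeq promoter windows (GRCm38.p6, 250 bases before to 50 after a start) were found for 8 of the 10 genes, in 14 windows, but not for Pmaip1 and Bik. Each window was searched on its own strand, for the closest pair of p53 half-site consensus sequences, each 10 bases long with at most 13 bases between them (the consensus reads the same on both strands). Capitals mark the closest pair. The 250 bases before the start are at chr7:16309333-16309582 on the plus strand for the first of 3 starts of Bbc3, at chr7:45466899-45467148 on the minus strand for Bax and at chr5:118169514-118169763 on the plus strand for Hrk. The same bases lie once on their chromosome in NCBIM37 (mm9), the build of the count tables, upstream of each gene and in no annotated exon.
Bbc3: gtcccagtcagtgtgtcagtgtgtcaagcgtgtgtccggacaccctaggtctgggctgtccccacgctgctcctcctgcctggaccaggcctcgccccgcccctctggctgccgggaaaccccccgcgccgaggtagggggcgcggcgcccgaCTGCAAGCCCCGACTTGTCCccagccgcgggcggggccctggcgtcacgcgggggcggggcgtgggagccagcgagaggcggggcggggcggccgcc
Bax: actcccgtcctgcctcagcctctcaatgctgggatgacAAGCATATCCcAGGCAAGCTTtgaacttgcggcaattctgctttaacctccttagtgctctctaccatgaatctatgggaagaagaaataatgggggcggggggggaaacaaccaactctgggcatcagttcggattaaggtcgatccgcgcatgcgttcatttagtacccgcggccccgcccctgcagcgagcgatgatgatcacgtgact
Hrk: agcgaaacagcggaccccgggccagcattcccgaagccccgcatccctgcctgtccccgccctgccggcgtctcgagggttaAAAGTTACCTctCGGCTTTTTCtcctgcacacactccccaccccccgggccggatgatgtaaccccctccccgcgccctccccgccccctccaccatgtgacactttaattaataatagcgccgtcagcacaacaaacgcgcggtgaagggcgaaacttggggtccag
The pair upstream of Bax differs from the consensus at 1 of 20 bases, with 1 of its half-sites intact, and only 1.09% of the 32851 windows come as close. The pairs shown upstream of the first start of Bbc3 and of Hrk differ at 3 and 4 bases, as 45.1% and 89.3% of windows do or better. Of the 14 windows, some of which belong to the same gene, 13 held at least the median number of CpG dinucleotides of all windows, which is 7. The first of the 3 windows of Bbc3 held 34, and those of Bax and Hrk held 19 and 29. A match is a description of letters, and none of these windows was tested for binding.

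Doxorubicin raised 4 of the 10 genes in WT cells, Pmaip1, Bbc3, Bik and Bad, and the same 4 genes in Cfp1-/- cells, while Hrk fell in WT cells. Bax and Bak1, the effectors, did not pass the test in either line. By edgeR's quasi-likelihood test at an adjusted p under 0.05, 26.5% of all genes tested were higher and 21.8% lower in treated WT cells, the shares against which 4 higher and 1 lower of 10 are read. In Cfp1-/- cells 27.8% of all genes were higher and 21% lower, against 4 higher and 0 lower of the 10 (0 lower also at an unadjusted p under 0.05 and by DESeq2). At an unadjusted p under 0.05 in edgeR, 5 of the 10 and 55.5% of all genes passed in either direction. The share of all genes by DESeq2 is not given here. The WT and Cfp1-/- responses share no samples. The median log2 fold change of the 10 genes was 0.38 in WT and 0.40 in Cfp1-/- cells, against 0.06 and 0.01 over all genes. In bulk RNA, fewer cells of a kind and less RNA per cell cannot be told apart.

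**Figure D1:**
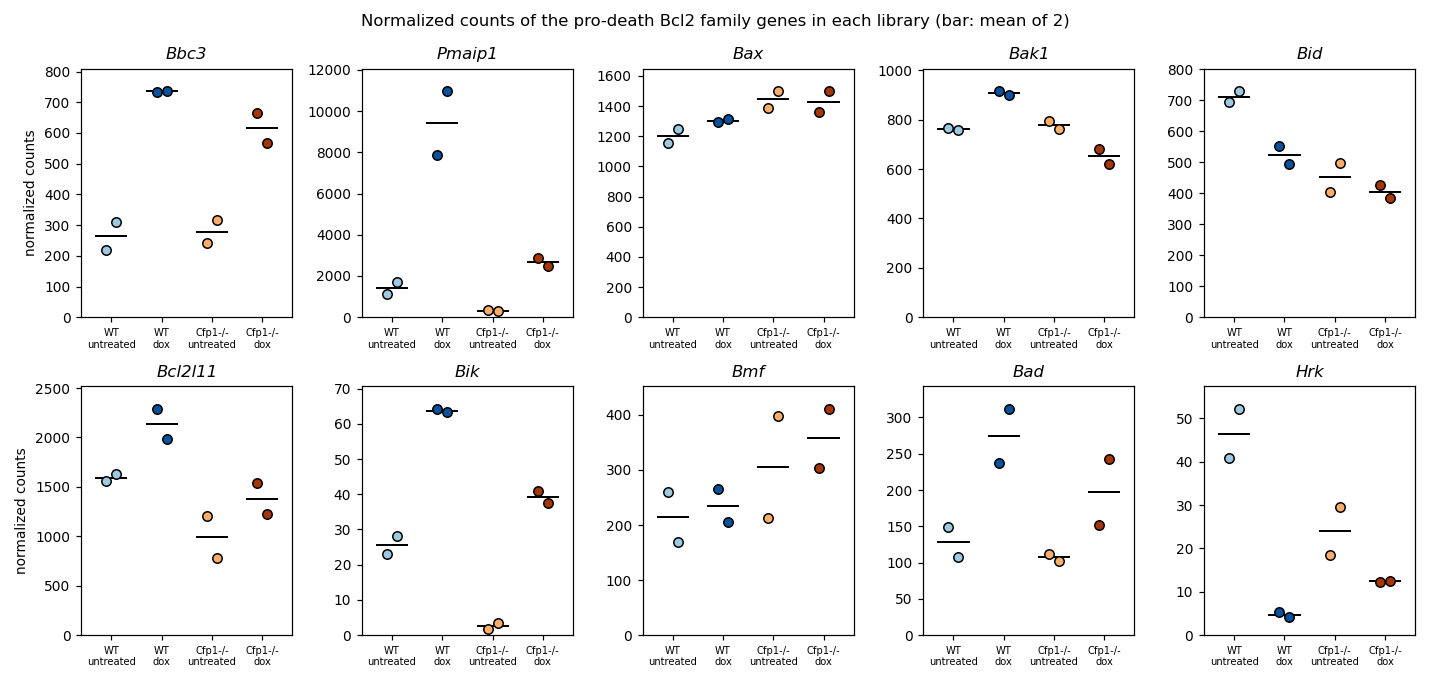
Normalized counts (vertical axis, from 0, each panel on its own scale) of the 10 pro-death Bcl2 family genes in the 8 libraries, grouped by line and treatment on the horizontal axis. Points are libraries and bars are means of 2. Pmaip1, Bbc3 and Bik sit higher in both treated groups than in the untreated group of the same line, Bax changes little, and Hrk is at 5.2 and 4.2 in treated WT cells against 40.8 and 52.1 in untreated ones.

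Pmaip1 encodes Noxa, a BH3-only protein that binds Mcl1 (ENSMUSG00000024521, NCBIM37 chromosome 18, 66618258 to 66625204, plus strand). It had 1109 and 1699 normalized counts in untreated WT cells and 7879 and 10967 in treated ones. Untreated Cfp1-/- cells had 327 and 303 and treated ones 2861 and 2473. Both treated libraries of each line lay above both untreated ones, and each Cfp1-/- group lay below the WT group of the same treatment. The log2 fold change with doxorubicin was 2.79 (SE 0.230, adjusted p = 1.79e-05 by edgeR's quasi-likelihood test, Benjamini-Hochberg adjusted over all genes) in WT and 3.12 (SE 0.238, adjusted p = 1.33e-05) in Cfp1-/- cells. The responses were 6.94-fold and 8.72-fold, and their difference on the log2 scale was 0.33, with a 95% interval of -0.37 to 1.03. With doxorubicin the Cfp1-/- libraries lay above the untreated WT ones, 2473 against 1699 at the nearest, and below the treated WT ones.

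Pmaip1 was also the gene of the 10 with the largest difference between the lines that did not rest on low counts. Its log2 difference, Cfp1-/- against WT, was -2.13 (SE 0.231, adjusted p = 2.72e-04 by edgeR's quasi-likelihood test) without and -1.80 (SE 0.221, adjusted p = 8.70e-04) with doxorubicin, that is 4.37-fold and 3.47-fold lower. Cxxc1, the deleted gene, lies 7.75 Mb away on the same chromosome. Of the 59 tested genes within 5 Mb of Pmaip1, 3 were as low or lower in untreated and 0 in treated Cfp1-/- cells, and their medians were -0.23 and -0.04. This window does not reach Cxxc1, and the part of the region or of the line background in the level of Pmaip1 was not tested. Pmaip1 kept its calls in both responses and both comparisons of the lines under every alternative tried.

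Bbc3 encodes Puma, which binds all the main pro-survival proteins (ENSMUSG00000002083, NCBIM37 chromosome 7, 16894965 to 16903554, plus strand). WT cells had 219 and 312 normalized counts untreated and 735 and 736 treated. Cfp1-/- cells had 241 and 317 untreated and 665 and 567 treated. The untreated libraries of the lines overlapped, and every treated library lay above every untreated one. The log2 fold change was 1.52 (SE 0.220, adjusted p = 4.19e-04 by edgeR's quasi-likelihood test) in WT and 1.19 (SE 0.218, adjusted p = 0.00169) in Cfp1-/- cells, or 2.87-fold and 2.27-fold. Their difference was -0.33, with an interval from -1.02 to 0.35. Between the lines Bbc3 differed by 0.10 (-0.39 to 0.59) untreated and -0.23 (-0.71 to 0.25) treated. Over the 1283 genes tested on chromosome 7 the median difference was 0.53 untreated and 0.47 treated, higher in Cfp1-/- cells, and its part in the values of Bbc3 was not tested. Both responses passed at an adjusted p under 0.05 in all 16 refits, and the stricter rule described next kept the WT call and not the Cfp1-/- one.

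The stricter rule adds the limits of the study's methods, a 2.5-fold change and 200 normalized counts on average. The study set them on DESeq values for the WT response. Here they were set on edgeR's values, in both responses and both comparisons of the lines. By this rule Bbc3 and Pmaip1 rose in WT cells and Pmaip1 alone in Cfp1-/- cells. Among all genes 5.1% rose by that rule in WT and 5.38% in Cfp1-/- cells. The 2.27-fold rise of Bbc3 in Cfp1-/- cells was just short of the fold required.

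**Figure D2:**
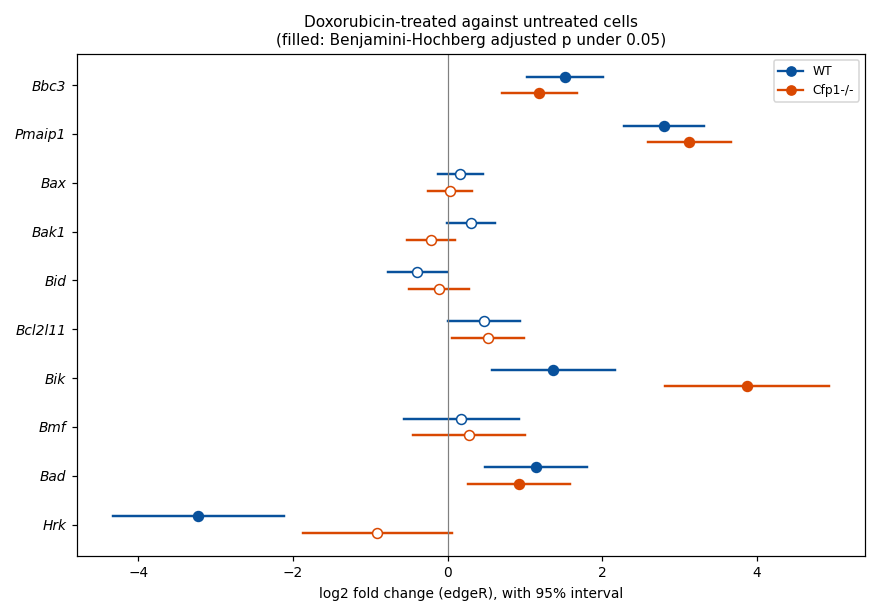
Log2 fold change with doxorubicin (horizontal axis) of each of the 10 genes in WT (blue) and Cfp1-/- (orange) cells, with 95% intervals from edgeR as lines. Filled points have an adjusted p under 0.05. Pmaip1 (2.79 and 3.12) and Bbc3 (1.52 and 1.19) lie close together in the lines, and Bik and Hrk lie apart.

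Bik encodes a BH3-only protein of the endoplasmic reticulum (ENSMUSG00000016758, NCBIM37 chromosome 15, 83357292 to 83375065, plus strand). It was scarce, with 22.9 and 28.1 normalized counts in untreated and 64.2 and 63.4 in treated WT cells. In Cfp1-/- cells it had 1.9 and 3.4 untreated and 40.9 and 37.6 treated. The untreated Cfp1-/- libraries held 2 and 4 raw counts, at or next to the floor of 3, while the treated ones held 40 and 39. From the counts alone the level was 14.8 times as high with doxorubicin in Cfp1-/- cells (95% counting interval 6.49 to 41.5) and 2.52 times (1.80 to 3.56) in WT cells. These intervals cover counting error only. The fitted log2 fold changes were 1.37 (SE 0.353, adjusted p = 0.0101 by edgeR's quasi-likelihood test) in WT and 3.87 (SE 0.475, adjusted p = 1.68e-04) in Cfp1-/- cells, where the fitted size depends on how low counts are handled and was 4.55 with first technical runs alone. Without replicate 1 of untreated WT cells the WT rise was 1.22 and no longer passed (adjusted p = 0.0616, the highest of the 16 alternatives, whose lowest was 0.00370).

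The responses of Bik differed by 2.505 on the log2 scale (0.00224 before and 0.181 after adjustment over all genes by edgeR's quasi-likelihood test), so the difference did not pass. Before treatment Bik was lower in Cfp1-/- than in WT cells, with WT at 9.53 times the Cfp1-/- level by counts (4.10 to 27.1) and a fitted log2 difference of -3.18 (SE 0.488, adjusted p = 0.00143), or -3.85 with first runs alone. With doxorubicin the WT level was 1.63 times the Cfp1-/- level (1.21 to 2.20), and the fitted difference of -0.67 did not pass (adjusted p = 0.173). Of the 137 tested genes within 5 Mb of Bik, 1 was as low or lower in untreated Cfp1-/- cells. The part of the region in the level of Bik was not tested.

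Hrk encodes a BH3-only protein best known from neurons (ENSMUSG00000046607, NCBIM37 chromosome 5, 118619773 to 118639487, plus strand) and was the 1 gene of the 10 to fall. Untreated WT cells had 40.8 and 52.1 normalized counts and treated WT cells 5.2 and 4.2, from 48 and 50 raw counts to 4 and 4. Untreated Cfp1-/- cells had 18.5 and 29.6 and treated ones 12.3 and 12.5. The treated libraries lay below the untreated ones in both lines. By counts the untreated WT level was 9.81 times the treated one (95% counting interval 4.79 to 23.3), and the untreated Cfp1-/- level 1.96 times (1.20 to 3.28). The log2 fold change was -3.22 (SE 0.495, adjusted p = 5.98e-04 by edgeR's quasi-likelihood test) in WT and -0.91 (SE 0.432, adjusted p = 0.108) in Cfp1-/- cells. The size of the WT fall depended on the runs. The second runs of both treated WT libraries held 0 counts of Hrk, and with first runs alone, of 4 and 4 counts, the log2 fold change was -2.05 (adjusted p = 0.00789). The difference between the responses, 2.31, gave 0.00678 before and 0.265 after adjustment. Between the lines Hrk differed by -0.91 (adjusted p = 0.0968) untreated and 1.40 (adjusted p = 0.0896) treated, neither of which passed.

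Bad encodes a BH3-only protein that survival signals hold inactive by phosphorylation (ENSMUSG00000024959, NCBIM37 chromosome 19, 7016351 to 7026388, plus strand). It had 149 and 107 normalized counts in untreated WT cells and 237 and 312 in treated ones. Untreated Cfp1-/- cells had 112 and 102 and treated ones 151 and 243. Treated libraries lay above untreated ones in both lines. The lower treated Cfp1-/- library, replicate 1, holds 148 counts from its first run and 0 from its second, the run with lost counts, and its first run scaled by its own total would give 229. The log2 fold change was 1.14 (SE 0.294, adjusted p = 0.00999 by edgeR's quasi-likelihood test) in WT and 0.92 (SE 0.296, adjusted p = 0.0274) in Cfp1-/- cells, and without that run it was 1.19 (SE 0.246, adjusted p = 0.00337) in Cfp1-/- cells. The difference between the responses was -0.22 with and 0.04 without the run. Bad rested on few libraries. Its WT call was lost without replicate 2 of untreated (0.92, adjusted p = 0.0652) or treated WT cells (0.92, adjusted p = 0.0599), over a range of 0.00315 to 0.0652 in all alternatives. Its Cfp1-/- call was lost without either untreated Cfp1-/- library (adjusted p = 0.0825 and 0.127) and without replicate 2 of the treated ones (0.54, adjusted p = 0.242), over a range of 0.00337 to 0.242. Between the lines Bad differed by -0.23 (95% interval -0.90 to 0.44) untreated and -0.45 (-1.10 to 0.19) treated, or -0.19 treated without the run with lost counts. Gpr137 overlaps Bad on the opposite strand, and counting was strand-specific.

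The effectors did not pass the test of the response in either line. Bax (ENSMUSG00000003873, NCBIM37 chromosome 7, 52717065 to 52722268, minus strand) had 1155 and 1249 normalized counts in untreated and 1296 and 1313 in treated WT cells. Cfp1-/- cells had 1391 and 1498 untreated and 1359 and 1499 treated, so that these groups overlapped. The log2 fold change was 0.16 (95% interval -0.12 to 0.45, adjusted p = 0.319 by edgeR's quasi-likelihood test) in WT and 0.03 (-0.26 to 0.31, adjusted p = 0.880) in Cfp1-/- cells. With first runs alone it was 0.21 (adjusted p = 0.206) and 0.11 (adjusted p = 0.514). Its upstream pair of p53 half-sites, shown above, was the closest to the consensus among the 14 windows searched. Every Cfp1-/- library lay above every WT library, but the log2 differences of 0.29 untreated (adjusted p = 0.103) and 0.16 treated (adjusted p = 0.396) did not pass, and both were below the chromosome 7 medians given above.

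Bak1 (ENSMUSG00000057789, NCBIM37 chromosome 17, 27156755 to 27165954, minus strand) had 767 and 757 normalized counts in untreated and 916 and 901 in treated WT cells. Cfp1-/- cells had 796 and 761 untreated and 683 and 619 treated. The treated libraries lay above the untreated ones in WT cells and below them in Cfp1-/- cells. Neither response passed, at 0.30 (SE 0.140, adjusted p = 0.105 by edgeR's quasi-likelihood test) and -0.22 (SE 0.140, adjusted p = 0.232). Their difference of -0.52 (95% interval -0.96 to -0.07) had a p of 0.0273 in that test, and 0.407 after adjustment. Treated Cfp1-/- cells were lower than treated WT cells, with a log2 difference of -0.46 (SE 0.141, adjusted p = 0.0401), a call that was lost under 10 of the 16 alternatives, with adjusted p from 0.0192 to 0.199 over all of them. These include leaving out any 1 of the 4 treated libraries or of the 2 untreated Cfp1-/- libraries, which gave -0.54 to -0.38 and adjusted p of 0.0569 to 0.199. Ggnbp1 overlaps Bak1 on the opposite strand.

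Scaling mattered for the effectors. Scaled by total counts, the median of all genes moved by 0.31 in WT and 0.21 in Cfp1-/- cells with doxorubicin, and by 0.19 untreated and 0.09 treated between the lines. On that scale 36.4% of all genes were higher and 11.7% lower in treated WT cells, and of the 10 genes 7 were higher and 1, Hrk, lower. Bax and Bak1 rose in WT cells, by 0.48 (adjusted p = 0.0138 by edgeR's quasi-likelihood test, 0.0138 to 0.660 over the alternatives) and 0.61 (adjusted p = 0.00490, 0.00490 to 0.295), and Bcl2l11 rose in both lines. Between the lines, untreated Bax was then higher in Cfp1-/- cells by 0.49 (adjusted p = 0.0182, 0.0182 to 0.337), and the differences of untreated Bid and Bcl2l11 and of treated Bak1 no longer passed.

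Bcl2l11 encodes Bim, which binds all the main pro-survival proteins and can activate Bax directly (ENSMUSG00000027381, NCBIM37 chromosome 2, 127951774 to 127988283, plus strand). WT cells had 1557 and 1630 normalized counts untreated and 2287 and 1980 treated. Cfp1-/- cells had 1203 and 778 untreated and 1536 and 1224 treated. Treated libraries lay above untreated ones in both lines, in Cfp1-/- cells by little (1224 against 1203). The log2 fold changes of 0.47 (SE 0.209, adjusted p = 0.0915 by edgeR's quasi-likelihood test) and 0.52 (SE 0.210, adjusted p = 0.0649) did not pass, though they did under 5 and 4 of the 16 alternatives. Each Cfp1-/- group lay below the WT group of the same treatment. The difference was -0.66 untreated (SE 0.210, adjusted p = 0.0368) and -0.60 treated (SE 0.209, adjusted p = 0.0600). The untreated call was lost without replicate 1 (adjusted p = 0.0819) or 2 (0.113) of untreated WT cells and without replicate 2 of untreated Cfp1-/- cells (-0.37, adjusted p = 0.207), with total counts (-0.47, adjusted p = 0.0966) and when only the compared groups were fitted (-0.63, adjusted p = 0.0510), over a range of 0.00421 to 0.207, and the treated difference passed under 8 alternatives.

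Bid encodes a BH3-only protein that caspase-8 cleaves, which joins death receptors to mitochondria (ENSMUSG00000004446, NCBIM37 chromosome 6, 120841948 to 120866871, minus strand). WT cells had 692 and 729 normalized counts untreated and 553 and 495 treated. Cfp1-/- cells had 403 and 499 untreated and 425 and 384 treated. In WT cells the treated libraries lay below both untreated ones, and in Cfp1-/- cells they overlapped. The response was -0.39 (SE 0.171, adjusted p = 0.0838 by edgeR's quasi-likelihood test) in WT and -0.11 (SE 0.172, adjusted p = 0.612) in Cfp1-/- cells. The difference between the responses was 0.28 (-0.26 to 0.82, adjusted p = 0.745). Untreated Cfp1-/- cells were lower than WT cells, with a log2 difference of -0.63 (SE 0.171, adjusted p = 0.0192), and the treated difference of -0.35 did not pass (adjusted p = 0.164). The untreated call was lost without replicate 1 (adjusted p = 0.0603) or 2 (0.0907) of untreated WT cells and without replicate 1 of untreated Cfp1-/- cells (-0.46, adjusted p = 0.146), over a range of 0.00579 to 0.146. Bcl2l13, another Bcl2 family gene, overlaps Bid on the opposite strand.

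Bmf encodes a BH3-only protein that is held at the cytoskeleton in healthy cells (ENSMUSG00000040093, NCBIM37 chromosome 2, 118354493 to 118375423, minus strand). WT cells had 260 and 169 normalized counts untreated and 265 and 206 treated. Cfp1-/- cells had 213 and 397 untreated and 304 and 411 treated. Treated and untreated libraries overlapped in both lines, and Bmf passed in none of the comparisons. Its responses were 0.17 (95% interval -0.57 to 0.92) and 0.27 (-0.45 to 1.00), and its differences between the lines 0.53 (-0.20 to 1.27) untreated and 0.63 (-0.11 to 1.37) treated. Its replicates lay far apart, and these intervals reach 1.37 on the log2 scale.

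**Figure D3:**
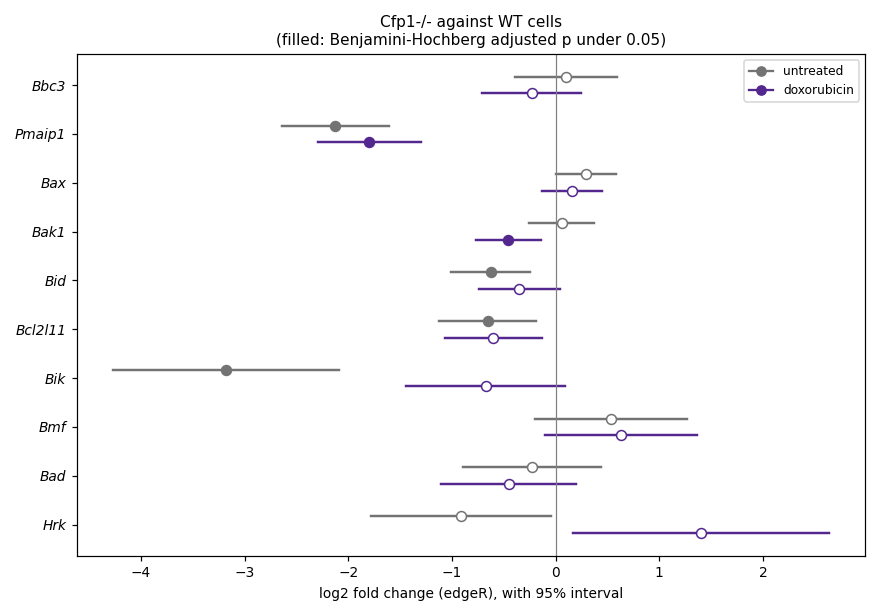
Log2 difference between Cfp1-/- and WT cells (horizontal axis) of each of the 10 genes, untreated (grey) and with doxorubicin (purple), with 95% intervals from edgeR as lines. Filled points have an adjusted p under 0.05. Pmaip1 lies at -2.13 and -1.80, and Bik at -3.18 untreated and -0.67 treated.

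Before treatment 4 of the 10 genes were lower in Cfp1-/- than in WT cells, Pmaip1, Bik, Bid and Bcl2l11, and 0 were higher (1, Bax, at an unadjusted p under 0.05 in edgeR, and 0 by DESeq2). Among all genes tested 16.1% were lower and 17.9% higher in that comparison. At an unadjusted p under 0.05 in edgeR, 6 of the 10 and 44.9% of all genes passed in either direction. With doxorubicin 2 were lower, Pmaip1 and Bak1, and 0 higher (1, Hrk, at an unadjusted p under 0.05 in edgeR, and 0 by DESeq2), against 10.8% lower and 15.1% higher among all genes. At that unadjusted p 4 of the 10 and 39.3% of all genes passed in either direction. The shares of all genes by DESeq2 are not given here. By the stricter rule Pmaip1 alone was lower, untreated and treated, where 1.51% and 1.02% of all genes were. The median log2 difference of the 10 genes was -0.43 untreated and -0.40 treated, against 0.01 and 0.02 over all genes. The 2 comparisons of the lines share no libraries with each other, but each shares its libraries with the responses to doxorubicin.

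The responses of the lines were not shown to differ for any of the 10 genes. By DESeq2's Wald test on the interaction 0 of 10 passed, where 216 genes in all did. By edgeR's quasi-likelihood test 0 of 10 passed too, where 0.235% of all genes tested did. At an unadjusted p under 0.05 the count was 3 of 10, Bak1, Bik and Hrk, against 10.6% of all genes. With 2 libraries a group the intervals remained wide, reaching from 1.14 to 3.87 for Bik and from 0.80 to 3.82 for Hrk on the log2 scale.

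Per kilobase of exon, the untreated WT cells held mostly RNA of the effectors and Pmaip1. The length is that of all annotated exons, 1339 bases for Bax and 8029 for Bcl2l11, whichever transcripts the cells used. The order and the shares below depend on it. Before that division Bcl2l11 had 1557 and 1630 normalized counts in untreated WT cells, and Bax 1155 and 1249. Bax led with 863 and 933 normalized counts per kb, followed by Pmaip1 with 419 and 642 and Bak1 with 319 and 314. Below these came Bid (195 and 205) and Bcl2l11 (194 and 203), which did not differ beyond their spread, and then Bbc3, Bad, Bmf, Bik and, last, Hrk with 7.60 and 9.71. With doxorubicin Pmaip1 stood first in WT cells, at 2978 and 4145 per kb, and Bax second at 968 and 981. In treated Cfp1-/- cells Pmaip1 (1081 and 934) and Bax (1015 and 1120) overlapped, and so did Bbc3 (331 and 282) and Bak1 (284 and 257).

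The make-up of the pool shifted accordingly. Pmaip1 took 18.6% and 24.9% of the 10 genes' summed level per kb in untreated WT cells, and 55.5% and 63.6% in treated ones. In Cfp1-/- cells its share was 6.25% and 5.50% untreated and 33.8% and 30.2% treated. Bax held 38.3% and 36.2% in untreated and 18.0% and 15.1% in treated WT cells, and 52.5% and 53.8% in untreated and 31.7% and 36.2% in treated Cfp1-/- cells. The summed level of the 10 genes was 2254 and 2578 normalized counts per kb in untreated and 5370 and 6515 in treated WT cells. In Cfp1-/- cells it was 1979 and 2081 untreated and 3201 and 3095 treated, higher with doxorubicin in both lines and lowest in untreated Cfp1-/- cells. The sum includes Pmaip1, with 419 and 642 per kb in untreated WT and 124 and 114 in untreated Cfp1-/- cells. A change of Pmaip1 alone moves the sum and the share of every gene, Bax included.

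**Figure D4:**
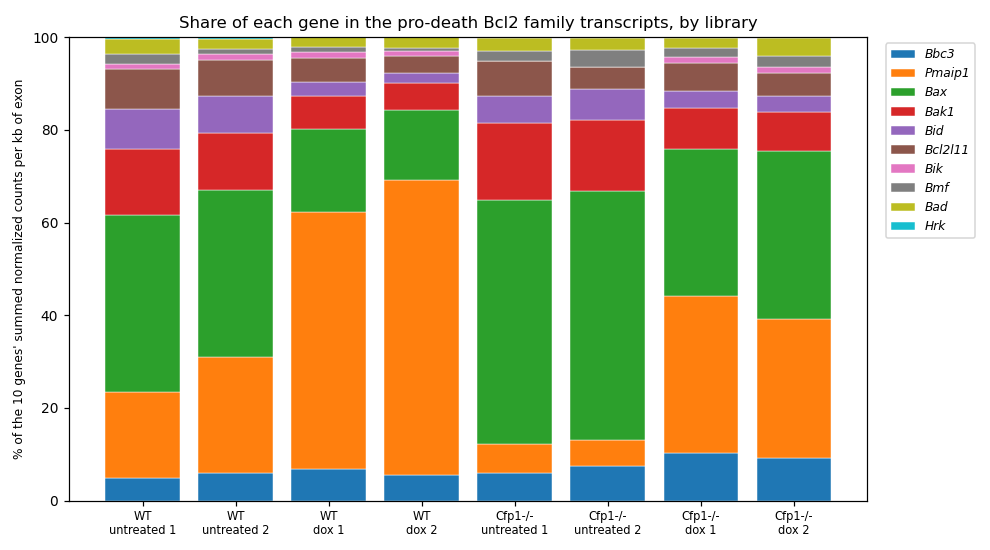
Share (vertical axis, percent, from 0 to 100) of each of the 10 genes in their summed normalized counts per kb of exon, 1 bar for each of the 8 libraries. The share of Pmaip1 lies between 55.5% and 63.6% in treated WT cells and between 30.2% and 33.8% in treated Cfp1-/- cells.

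On the other side of the family, 5 of 8 pro-survival genes could be tested. In WT cells 1 rose and 0 fell, where 26.5% of all genes tested rose and 21.8% fell. In Cfp1-/- cells 2 rose and 1 fell, where 27.8% and 21% of all genes did. Mcl1, the partner of Noxa, had 19782 and 17721 normalized counts in untreated and 16999 and 12987 in treated WT cells, and 8135 and 8569 in untreated and 15315 and 16887 in treated Cfp1-/- cells. The rise of Mcl1 in Cfp1-/- cells was 0.99 on the log2 scale (adjusted p = 5.99e-04 by edgeR's quasi-likelihood test). It started from a lower level, with a log2 difference from WT cells of -1.14 untreated (adjusted p = 7.20e-04). The treated difference of 0.13 did not pass (adjusted p = 0.561). Bcl2l1, which encodes Bcl-xL, fell in Cfp1-/- cells by 0.95 on the log2 scale (adjusted p = 0.00623), with a WT value of -0.18 that did not pass. The difference between the responses was 1.27 (95% interval 0.79 to 1.74) for Mcl1 and -0.77 (-1.47 to -0.07) for Bcl2l1. For neither gene did it pass by edgeR's quasi-likelihood test (adjusted p = 0.0606 for Mcl1 and 0.429 for Bcl2l1). Bcl2l10 rose by 2.54 in WT and 1.64 in Cfp1-/- cells with 4 to 17 raw counts in the untreated libraries, and it was 1.55 higher in untreated Cfp1-/- than in untreated WT cells. Bcl2 was lower in Cfp1-/- than in WT cells, at a log2 difference of -2.23 untreated (adjusted p = 0.0137) and -1.91 treated (adjusted p = 0.0403), with 50.1 and 155 normalized counts in untreated WT and 19.5 and 22.8 in untreated Cfp1-/- cells.

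Among 11 other family and BH3-like genes 2 rose and 2 fell in WT cells (26.5% and 21.8% of all genes). In Cfp1-/- cells 0 rose and 3 fell (27.8% and 21% of all genes). Bnip3, a mitochondrial protein known from hypoxia and mitophagy, fell by 2.44 in WT (adjusted p = 1.63e-04 by edgeR's quasi-likelihood test) and by 1.53 in Cfp1-/- cells (adjusted p = 0.00210) on the log2 scale. Bnip1 fell by 0.54 in WT and 0.59 in Cfp1-/- cells. Bcl2l15 and Bcl2l14 rose in WT cells, by 1.36 and 1.16, with 0.89 and 0.12 in Cfp1-/- cells, which did not pass. Bcl2l12 fell in Cfp1-/- cells by 1.11, and its WT value of -0.71 did not pass. For these 3 genes the difference between the responses did not pass. Between the lines, Bnip2 was lower in Cfp1-/- cells, at -1.22 untreated and -0.86 treated, Becn1 higher by 0.77 untreated and 0.60 treated, and Bcl2l14 higher by 1.40 untreated, with 0.36 treated, which did not pass.

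Downstream of Bax and Bak1, 3 of 17 genes rose and 4 fell in WT cells (26.5% and 21.8% of all genes). In Cfp1-/- cells 5 rose and 7 fell (27.8% and 21% of all genes). Apaf1, the scaffold on which cytochrome c activates caspase-9, had 1308 and 1629 normalized counts in untreated and 11639 and 10160 in treated WT cells, and 1593 and 1407 in untreated and 9859 and 10820 in treated Cfp1-/- cells. Its log2 fold change was 2.94 (adjusted p = 3.08e-06 by edgeR's quasi-likelihood test) in WT and 2.83 (adjusted p = 4.10e-06) in Cfp1-/- cells. Endog rose in both lines, by 0.87 in WT and 0.94 in Cfp1-/- cells. Birc2, an inhibitor of apoptosis gene, fell by 1.04 in WT and 0.95 in Cfp1-/- cells. Vdac2, which holds Bak1 at mitochondria, fell by 0.84 and 0.60, and Casp2 by 0.84 and 1.00. Birc3, of the same family as Birc2, fell by 1.27 in Cfp1-/- cells, and its WT value of -0.46 did not pass (adjusted p = 0.145), while the difference between the responses did not pass either (adjusted p = 0.445). Between the lines Birc3 was lower in treated Cfp1-/- cells, at -0.93, and its untreated value of -0.11 did not pass.

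Of 10 transcription factors known to act on BH3-only genes, 6 rose and 1 fell in WT cells (26.5% and 21.8% of all genes). In Cfp1-/- cells 6 rose and 2 fell (27.8% and 21% of all genes). Trp73, of the p53 family, rose by 4.81 in WT (adjusted p = 1.89e-06 by edgeR's quasi-likelihood test) and 4.05 in Cfp1-/- cells (adjusted p = 4.12e-06), from 53.5 and 71.9 to 1991 and 1405 normalized counts in WT cells. Jun rose by 1.75 in WT and 1.74 in Cfp1-/- cells. Atf4 fell by 1.13 in WT and 0.67 in Cfp1-/- cells. Trp53 itself, the gene of p53, fell by 0.51 in Cfp1-/- cells, from a level above that of WT cells. Its WT value of 0.10 did not pass, nor did the difference between the responses (adjusted p = 0.348). Untreated Cfp1-/- cells had 4669 and 4324 normalized counts of Trp53 against 2473 and 2283 in untreated WT cells. That log2 difference was 0.95 (adjusted p = 0.00159 by edgeR's quasi-likelihood test), and the treated one of 0.34 did not pass (adjusted p = 0.118). Trp63 had 2 and 1 raw counts in untreated and 2 and 21 in treated WT cells, so that its call there rested on 1 library, whereas untreated Cfp1-/- cells had 79 and 81 and treated ones 68 and 80, a difference called in both comparisons of the lines. Between the lines Atf4 was lower in Cfp1-/- cells without and with doxorubicin, at -2.34 and -1.88. Myc was lower in untreated Cfp1-/- cells, at -2.42, and its treated value of -1.09 did not pass.

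Of 19 p53 target genes outside the family, 17 rose in WT cells (26.5% of all genes) and 14 in Cfp1-/- cells (27.8%), and 0 fell. Fas, a death receptor, rose by 4.74 and 4.29 on the log2 scale, and had 13.6 and 13.6 normalized counts in untreated and 309 and 400 in treated WT cells. Btg2 rose by 3.43 in WT and 2.80 in Cfp1-/- cells, and Plk2 by 2.64 and 3.06. In this list 1 gene passed the test of the difference between the responses, where 0.235% of all genes tested did. This was Gtse1, which responded less in Cfp1-/- cells, with a difference of -1.06 (adjusted p = 0.0489 by edgeR's quasi-likelihood test). The call lay just under the threshold, Gtse1 was named after its value was seen, and its values under the alternatives are not given here. Aen, an apoptosis-enhancing nuclease, was lower in Cfp1-/- than in WT cells, at -1.29 untreated and -1.47 treated, while Plk3 was higher by 0.80 untreated (0.13 treated, not passing) and Rrm2b by 0.66 treated (0.42 untreated, not passing). The medians of this list were 1.50 and 1.16, and those of the 10 pro-death genes 0.38 and 0.40.

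**Figure D5:**
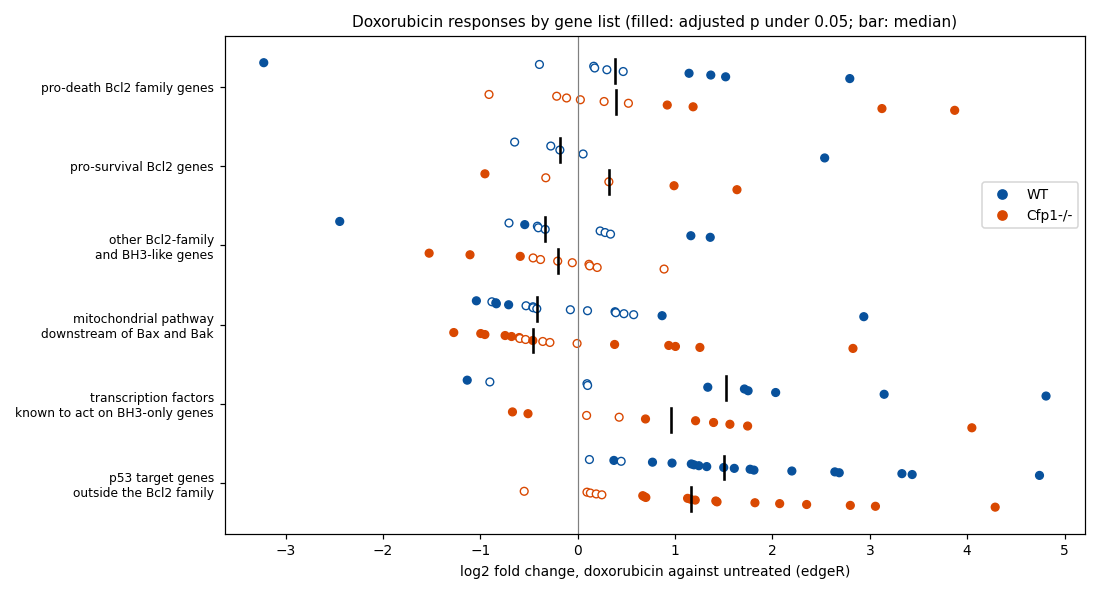
Log2 fold change with doxorubicin (horizontal axis) of the tested genes of 6 lists in WT (blue) and Cfp1-/- (orange) cells. Each point is a gene, filled where its adjusted p in edgeR was under 0.05, and black bars are medians of the list. The p53 target list has medians of 1.50 and 1.16, and the 10 pro-death genes medians of 0.38 and 0.40.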

How the data were processed

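RNA-Seq counts from 8 biological replicates in 4 groups were analysed. The authors depleted ribosomal RNA and sequenced strand-specific libraries as read pairs. Per the labels' processing notes, reads were aligned to mm9 with STAR 2.2.1 and counted per gene with HTSeq, which the study's methods run on the sense strand over Ensembl exons, leaving out ambiguous reads. The authors deposited raw counts per technical run, and a signal of normalized counts per biological replicate. In each column of that table the deposited signal is the summed count times 1 constant. Runs were summed. In 6 of 8 replicates the 2 runs agreed within sampling noise (chi-square per degree of freedom 0.998 to 1.05), and the other pairs, both of treated replicates 1, gave 9.61 in WT and 42.9 in Cfp1-/- cells.

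The counts were tested with edgeR 4.0.16 in R 4.3.3 (filterByExpr, TMM, 1 coefficient per group, glmQLFit, glmQLFTest, Benjamini-Hochberg over 15758 genes, common dispersion 0.0304, prior degrees of freedom 5.62). Each standard error is the log2 fold change divided by the root of its F statistic. A gene was called at an adjusted p under 0.05. Symbols were matched to the tables' Ensembl identifiers by GENCODE annotation of the same build, and lengths are summed exons. Scripts were tested on simulated data. The alternatives were DESeq2 size factors, total counts as library sizes, DESeq2 1.42.0, no low-count filter, a replicate block, each comparison's groups alone, leaving out the run with lost counts, first runs alone, the stricter rule, an adjusted p under 0.1 for the difference between responses, CPM per kb for levels, and leaving out each replicate. All 10 genes are named in every comparison. Each other list gives, among its called genes, up to 2 of the largest rises and falls per response and 1 each way per comparison of the lines. Some genes that this rule names are not reported here. The genes and lists were chosen with earlier results of these data known. Moap1 matched 2 genes, and Pidd1 and Sox1 none, so they were left out.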

Additional observations from a re-analysis of the deposited data

Results flagged for a closer look

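Bak1, 1 of the 2 effectors of the mitochondrial pathway, was set apart because its libraries moved in opposite directions in the lines. Both treated WT libraries (916 and 901 normalized counts) lay above both untreated ones (767 and 757), and both treated Cfp1-/- libraries (683 and 619) lay below both untreated ones (796 and 761). The difference between the responses, Cfp1-/- minus WT, was -0.52 on the log2 scale. Its p was 0.0273 by edgeR's quasi-likelihood test and 0.407 after Benjamini-Hochberg adjustment over all genes, and its adjusted p ranged from 0.210 to 0.667 over the alternatives. The difference lay between -0.62 and -0.44 in all 15 alternatives. Bak1 was picked for opposite movement in every library, so the kept sign adds no support. Scaled by total counts the responses were 0.61 in WT and -0.0019 in Cfp1-/- cells, so that the fall with doxorubicin in Cfp1-/- cells was not seen on that scale. Treated Cfp1-/- cells were then 0.36 lower than treated WT cells on the log2 scale, which did not pass (adjusted p = 0.0797 by edgeR's quasi-likelihood test).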

How the results depend on the processing

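Of 790 log2 values of the 10 genes recomputed under the alternatives, 715 kept their direction and their side of the threshold, 25 lost and 20 gained a call, and 30 changed sign; none of those 30 was a called value. In WT cells the number of the 10 genes called with doxorubicin was 8 with total counts as library sizes, where 3 genes were added and 36.4% of all genes were higher and 11.7% lower, and 2 under the stricter rule. In Cfp1-/- cells it was 1 under that rule. Between the lines the number called was 1 under the stricter rule untreated and treated, and 1 with total counts or with first runs alone treated. Without each replicate in turn it ranged from 2 to 4 untreated and from 1 to 2 treated. Over all genes, the number called for the difference between the responses was 216 by DESeq2's Wald test and 133 without the low-count filter, and it ranged from 0 to 13 without each replicate. For the lines it ranged from 3075 to 5624 untreated and from 1822 to 4110 treated. With the replicate block, 243 genes were called for the difference between the responses, and 6, 5, 0, 4 and 3 of the 10 genes in the WT response, the Cfp1-/- response, their difference and the untreated and treated comparisons of the lines, where 55.9%, 57%, 1.54%, 43.6% and 36.8% of all genes were called. The block added Bcl2l11 in the responses (0.46, adjusted p = 0.0261 in WT, and 0.53, adjusted p = 0.0122 in Cfp1-/- cells, by edgeR's quasi-likelihood test) and in the treated comparison (-0.61, adjusted p = 0.0102), and it changed no other call of the 10. Replicates with the same number deviated together (correlation across genes 0.183 to 0.611 over 6 pairs of groups), but with 2 numbers whose meaning the labels do not state they were not taken as pairs. Sign changes were, in Cfp1-/- cells, Bax at -0.015 with DESeq2 size factors and in DESeq2 and Bid at 0.097 with total counts. For the difference between the responses they were Bcl2l11 at -0.045 and Bmf at -0.0037 with total counts, Bcl2l11 at -0.018 and Bad at 0.044 without the run with lost counts, and Bcl2l11 at -0.012 and Bad at 0.17 with first runs alone. Without each replicate in turn, sign changes were within -0.12 to 0.52 for Bmf in WT cells, -0.12 to 0.77 for Bmf, -0.040 to 0.076 for Bax and -0.27 to 0.030 for Bid in Cfp1-/- cells, and within -0.30 to 0.60 for Bmf, -0.042 to 0.59 for Pmaip1, -0.24 to 0.39 for Bcl2l11 and -0.60 to 0.063 for Bad in the difference. In the untreated comparison of the lines they were within -0.12 to 0.37 for Bbc3 and -0.45 to 0.037 for Bad. The cause of these changes was not tested. Leaving out a replicate leaves 1 library in its group, which is assumed to vary like the others. Depth limits Bik and Hrk, whose lowest libraries held 2 and 4 counts.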
